A study of Mus musculus with 7 samples.

Results

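Ferritin chains and 8 other genes of iron handling were followed in cultured mouse haematopoietic stem cells exposed to a drug that disturbs DNA replication. The 10 genes, Ftl1, Fth1, Ncoa4, Tfrc, Slc11a2, Slc11a1, Slc40a1, Hmox1, Ireb2 and Aco1, were taken by symbol from the 52224 genes of the deposited table, and each symbol matched 1 row. RNA was sequenced from cells given gemcitabine at 0.5 µM (Gem, 2 libraries), hydroxyurea at 100 µM (HU, 2 libraries) or the solvent DMSO (3 libraries), all for 48 h. All cells came from the bone marrow of wild-type C57BL/6J mice and had been sorted as CD150+ CD48- cells of the lineage-negative, Sca-1+ and c-Kit+ gate, so no group carries a mutation and no uncultured cells are compared here. Whether replicate libraries stem from different mice or culture wells is not stated, so each p-value reflects how libraries vary, and that variation may be technical.

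Cells store iron inside ferritin, a shell built of light chains (Ftl1) and heavy chains (Fth1), and the heavy chain holds the ferroxidase that oxidises iron on entry. Iron enters on transferrin through the transferrin receptor (Tfrc), leaves the cell through ferroportin (Slc40a1), and is freed from ferritin when the cargo receptor NCOA4 carries the shell to lysosomes. The iron regulatory proteins, encoded by Aco1 and Ireb2, bind stem loops in messenger RNA when iron is low. At the 5′ end of a transcript this blocks translation, and at the 3′ end of Tfrc it protects the transcript from decay, so ferritin protein is set largely after transcription and RNA levels alone do not report it. Gemcitabine, a nucleoside analogue of deoxycytidine, stalls DNA synthesis once incorporated, and hydroxyurea quenches the radical in the iron-containing subunit of ribonucleotide reductase.

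The stem loops tie 4 of the genes together by sequence and are shown for that reason. The letters searched were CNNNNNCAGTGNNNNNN on the transcript strand, with the last base of the 6-base loop other than G and the 5 bases on either side of the loop able to pair, G with U included. Within the untranslated regions of GENCODE M21 transcripts (GRCm38), 7 matches lay in 4 of the 10 genes, and 119 of 21710 protein-coding genes (0.548%) held a match. Capitals mark the unpaired C and the loop, and 5 bases are added on each side.
Fth1 5′ UTR, chr19:9982733-9982759, plus strand: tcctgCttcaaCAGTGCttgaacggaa
Ftl1 5′ UTR, chr7:45459780-45459806, minus strand: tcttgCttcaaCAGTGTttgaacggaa
Slc40a1 5′ UTR, chr1:45925466-45925492, minus strand: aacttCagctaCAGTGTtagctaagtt
Tfrc 3′ UTR, chr16:32631220-32631246, plus strand: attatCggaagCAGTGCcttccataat
Tfrc 3′ UTR, chr16:32631599-32631625, plus strand: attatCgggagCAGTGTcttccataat
Tfrc 3′ UTR, chr16:32631664-32631690, plus strand: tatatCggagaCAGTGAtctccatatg
Tfrc 3′ UTR, chr16:32631711-32631737, plus strand: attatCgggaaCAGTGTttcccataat
Both ferritin elements shared 25 of 27 bases, whereas the Slc40a1 element shared 13 of 27 with either of them. The 4 Tfrc elements shared 17 to 25 bases with each other. A match describes letters only, and the other 6 genes had no match to this pattern in the untranslated regions searched. An element whose stem does not pair at all 5 positions would be missed, so a gene without a match may still hold one.

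The table as a whole differed between drug and DMSO libraries, and this bears on every value below. Genes above 0 FPKM numbered 27887 to 29158 in Gem, 29687 to 31153 in HU and 21251 to 23047 in DMSO. The reason was not tested, and a difference in depth or library quality cannot be told apart from the drug. Summed FPKM (fragments per kilobase of transcript, scaled to the mapped fragments of the library) was 703016 to 729258 in Gem, 647760 to 651315 in HU and 818775 to 832979 in DMSO, and the median of the 13865 genes tested changed by -0.25 in Gem and -0.30 in HU (log2). Values are therefore given as deposited and after a trimmed-mean scaling, which brought these medians to 0.008 and 0.005. Genes with at least 1 FPKM in at least 2 libraries were tested with limma on log2(FPKM + 1). All 10 iron genes stood above that level in every library, the lowest value being 4.46 FPKM for Ireb2 in HU 1. Stem cell markers were present but low: 10 marker genes summed to 194 to 215 FPKM in Gem, 179.5 to 183 in HU and 240.4 to 254 in DMSO, against 12254 to 15220, 11474 to 11981 and 11424 to 18358 FPKM for 11 neutrophil markers. Both sums rest largely on few genes and do not give shares of cell types. Cd34 held 98.3 to 128 FPKM of the first, and Mpo 2602 to 3982 and S100a8 2588 to 4954 of the second. The sequencing depth is unknown.

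The set was gathered by symbol around both ferritin chains, which were chosen by their FPKM in these libraries, that is by their high level in DMSO and their higher values in the drugs; what picked the other 8 is not recorded. Each drug against DMSO is therefore described for them without a p-value.

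Ferritin light chain was the most abundant transcript of every library and the heavy chain the third. Ftl1 stood at 51693 and 55186 FPKM in Gem, at 50162 and 57134 in HU, and at 36247, 32578 and 43602 in DMSO. All 4 drug libraries lay above all 3 DMSO libraries. The log2 fold change was 0.52 ± 0.21 in Gem and 0.53 ± 0.21 in HU (SE), and 0.82 ± 0.20 and 0.88 ± 0.20 after scaling. Fth1 stood at 22993 and 26344 FPKM in Gem, at 21694 and 23893 in HU, and at 16077, 14467 and 21010 in DMSO. The groups again did not overlap, although DMSO 3 lay just below HU 1, and the log2 fold changes were 0.54 ± 0.20 in Gem and 0.42 ± 0.20 in HU, or 0.84 ± 0.20 and 0.78 ± 0.20 after scaling. Of all tested genes, 3.76% were higher without overlap in both drugs as deposited, and 10.3% after scaling; 42.6% and 11.7% were lower. In bulk RNA a change in the number of cells of a type cannot be told apart from a change in RNA per cell.

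Together both chains held 10.2% and 11.6% of the summed FPKM in Gem, 11.1% and 12.4% in HU, and 6.28%, 5.74% and 7.89% in DMSO. Without them the remaining genes summed to 621486 to 654572 FPKM in Gem, 570289 to 575904 in HU and 754164 to 780655 in DMSO. That these sums did not overlap was fixed in advance, since the whole sums were lower in the drugs and ferritin was higher there. The balance of light to heavy chain moved less: Ftl1 was 2.25 and 2.09 times Fth1 in Gem, 2.31 and 2.39 times in HU, and 2.25, 2.25 and 2.08 times in DMSO. Gem and DMSO overlapped in this ratio, while both HU libraries lay slightly above the DMSO libraries.

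**Figure D1:**
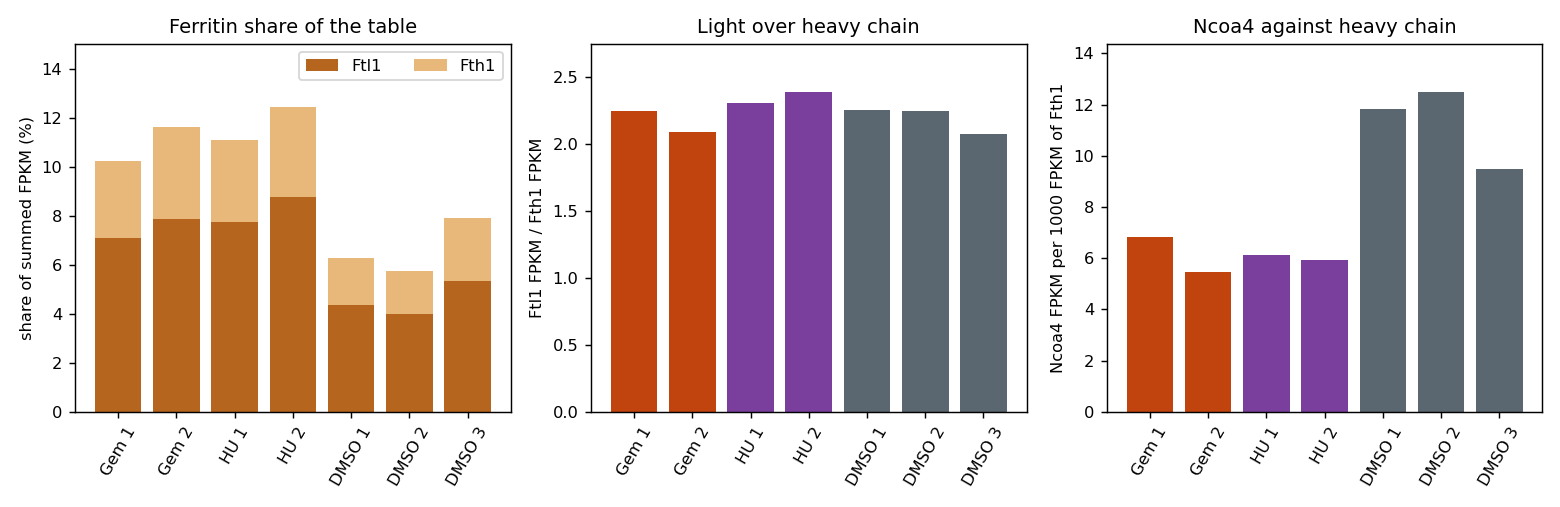
Share of the summed FPKM held by Ftl1 and Fth1 (left, %), FPKM of Ftl1 over that of Fth1 (middle) and FPKM of Ncoa4 per 1000 FPKM of Fth1 (right), 1 bar per library of Gem, HU and DMSO. The ferritin share was 10.2% to 12.4% in the drug libraries and 5.74% to 7.89% in DMSO, while the chain ratio stayed between 2.08 and 2.39.

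Markers of monocytes and macrophages, cells rich in ferritin, were measured beside these values. All 17 of their markers were in the table, 16 were above 0 in every library of each group, and Vsig4 was listed at 0 in both HU libraries. Their sum was 37732 to 38522 FPKM in Gem, 35315 to 39366 in HU and 25919 to 35238 in DMSO, almost all of it Lyz2, the lysozyme of myeloid cells. The other 16 markers summed to 2968 to 3385 FPKM in Gem, 2846 to 2944 in HU and 4202 to 4866 in DMSO, and after scaling to 3279 to 3590, 3232 to 3263 and 3657 to 4225. Most of this was Ly6c2, a surface marker of monocytes. The 15 markers left without it, a sum added after seeing the data, came to 965 to 1049 FPKM in Gem, 942 to 1017 in HU and 1200 to 1311 in DMSO, and after scaling to 1023 to 1159, 1070.0 to 1127 and 1044 to 1176, where the groups overlapped. Of the 16 markers tested, 4 were lower and 1 higher in Gem and 6 lower and 0 higher in HU as deposited (limma adjusted p below 0.05). Of all tested genes, 23.2% were called lower and 1.5% higher in Gem, and 35.5% and 4.46% in HU. After scaling 0 markers were called in Gem, 3 at an unadjusted p under 0.05, and 1 was higher in HU. Beside these, 0.476% of all genes were lower and 0.483% higher in Gem, and 5.78% and 4.62% in HU. The higher marker was C1qb, a chain of complement C1q, at 58.4 and 84.5 FPKM in Gem, 64.8 and 63.7 in HU and 47.9, 43.9 and 54.3 in DMSO. The other C1q chains on the list, C1qa and C1qc, were called in neither drug. As deposited C1qa changed by -0.05 in Gem and -0.03 in HU, and C1qc by -0.12 and -0.30 (log2). The part of these cells in the ferritin values was not tested.

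As deposited Ncoa4, the receptor that delivers ferritin for breakdown, lay on the other side of DMSO from the chains it carries. It was at 157 and 144 FPKM in Gem, at 133 and 141 in HU, and at 190.0, 181 and 199 in DMSO. Every drug library was below every DMSO library as deposited, as for 42.6% of all tested genes. The log2 fold changes were -0.34 ± 0.08 in Gem and -0.47 ± 0.08 in HU, against medians of -0.25 and -0.30 over all tested genes. After scaling the differences were -0.04 ± 0.07 and -0.12 ± 0.07, and Gem overlapped with DMSO while both HU libraries stayed below it. On that scale 21.1% of all tested genes were lower without overlap in HU. Set against Fth1 of the same library, where any single scaling factor cancels, there were 6.81 and 5.47 FPKM of Ncoa4 per 1000 FPKM of Fth1 in Gem, 6.12 and 5.91 in HU, and 11.8, 12.5 and 9.48 in DMSO.

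Tfrc, the main entry for transferrin-bound iron, was at 30.79 and 30.01 FPKM in Gem, at 28.9 and 29.9 in HU, and at 38.1, 36.9 and 49.4 in DMSO. The drug libraries were tightly spaced and all below DMSO, in which DMSO 3 stood apart on the high side. As deposited 42.6% of all tested genes were likewise lower without overlap in both drugs. The log2 fold change was -0.42 ± 0.13 in Gem and -0.47 ± 0.13 in HU as deposited, and -0.13 ± 0.14 in both after scaling, when the groups overlapped. Per 1000 FPKM of Ftl1 there were 0.596 and 0.544 FPKM of Tfrc in Gem, 0.576 and 0.524 in HU, and 1.05, 1.13 and 1.13 in DMSO. A single factor per library cancels in this ratio and in that of Ncoa4 to Fth1, but quantile normalization does not. Both ratios have a ferritin chain below the line that was chosen for its higher values in the drugs, so they are lower there in part by that choice, and they are given as a description only.

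Slc11a2 encodes DMT1, which moves iron out of endosomes after uptake by the receptor. Its level was 10.6 and 12.5 FPKM in Gem, 13.2 and 11.04 in HU, and 12, 12.8 and 14.1 in DMSO, and the groups overlapped. The log2 fold changes of -0.16 ± 0.13 in Gem and -0.09 ± 0.13 in HU turned to 0.12 ± 0.14 and 0.23 ± 0.14 after scaling. A gene on the opposite strand, Gm5475, overlaps Slc11a2, and without strand in the protocol their reads cannot be told apart.

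Slc11a1 encodes NRAMP1, the metal transporter of phagosomes in myeloid cells, and it was far more abundant in FPKM than its relative Slc11a2. It was at 155 and 181 FPKM in Gem, at 159 and 170 in HU, and at 204, 204 and 228 in DMSO. Both drugs lay below DMSO without overlap, as for 42.6% of all tested genes. The log2 fold changes were -0.34 ± 0.09 in Gem and -0.36 ± 0.09 in HU. Little of that was left after scaling, at -0.04 ± 0.11 and -0.01 ± 0.11.

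Slc40a1, the only known iron exporter of mammals, stayed near its DMSO level as deposited. It was at 109 and 123 FPKM in Gem, at 131 and 131 in HU, and at 118, 116 and 132 in DMSO, so that each drug overlapped with DMSO. Its log2 fold change was -0.08 ± 0.09 in Gem and 0.10 ± 0.09 in HU. After scaling these were 0.22 ± 0.10 and 0.45 ± 0.10, and both HU libraries then lay above the DMSO libraries, at 145 and 149 against 101 to 118 scaled FPKM. Slc40a1 was the third of the 10 genes by size of difference in HU after scaling. The part of its 5′ stem loop, shown above, in these values was not tested.

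Hmox1, the inducible oxygenase that frees iron from heme, was abundant in all groups. It was at 881 and 963 FPKM in Gem, at 817 and 961 in HU, and at 948, 856 and 1119 in DMSO. The groups overlapped on either scale, with log2 fold changes of -0.07 ± 0.13 in Gem and -0.13 ± 0.13 in HU, and of 0.23 ± 0.14 and 0.22 ± 0.14 after scaling.

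The transcripts of the iron regulatory proteins were low in all groups. Ireb2, which encodes IRP2, was at 7.09 and 5.61 FPKM in Gem, at 4.46 and 6.27 in HU, and at 6.33, 6.07 and 6.87 in DMSO. Its drug libraries spread more widely than those of DMSO, and the log2 fold changes were -0.02 ± 0.17 in Gem and -0.24 ± 0.17 in HU, or 0.24 ± 0.16 and 0.07 ± 0.16 after scaling. As deposited all groups overlapped, and after scaling both Gem libraries, lay just above the highest DMSO library. Aco1 encodes cytosolic aconitase, which becomes IRP1 when it loses its iron-sulfur cluster. It was at 12.8 and 12.3 FPKM in Gem, at 11.99 and 11.97 in HU, and at 12.96, 14.6 and 15.5 in DMSO. As deposited the drug libraries were all below DMSO, as for 42.6% of all tested genes. The log2 fold changes were -0.18 ± 0.10 in Gem and -0.24 ± 0.10 in HU. After scaling they were 0.10 ± 0.11 and 0.09 ± 0.11, and the groups overlapped.

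**Figure D2:**
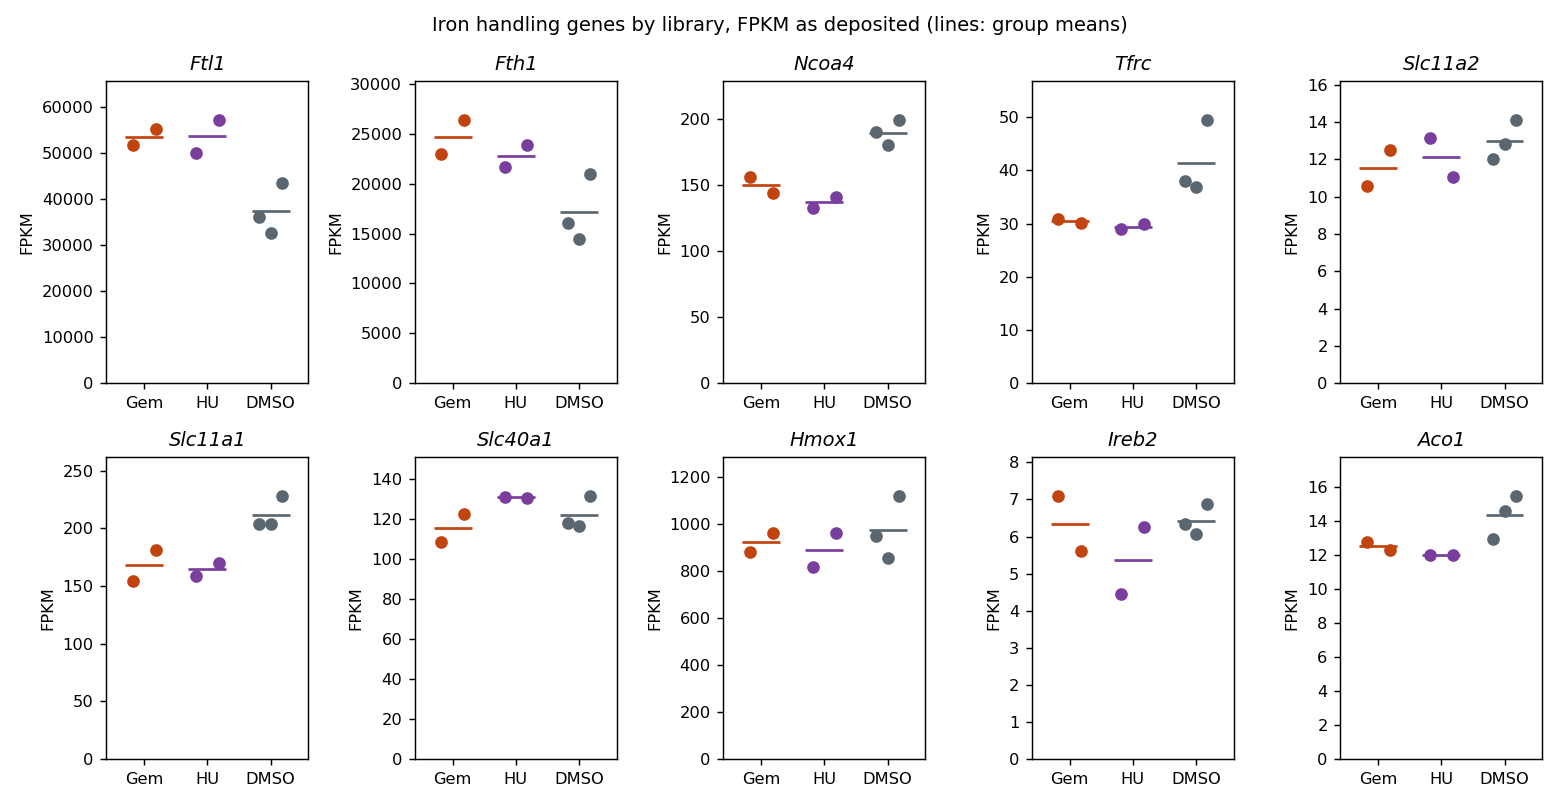
FPKM as deposited of the 10 iron handling genes, 1 point per library of Gem, HU and DMSO with a line at each group mean; every axis starts at 0. Ftl1 and Fth1 are higher in all drug libraries, Ncoa4, Tfrc, Slc11a1 and Aco1 are lower in all of them, and for the other 4 genes each drug overlaps with DMSO. Of all tested genes, 3.76% were higher and 42.6% lower without overlap in both drugs.

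Ordered by mean FPKM over the 7 libraries, the genes ran from Ftl1 (46657) and Fth1 (20925) through Hmox1 (935), Slc11a1 (186), Ncoa4 (164), Slc40a1 (123), Tfrc (34.9), Aco1 (13.2) and Slc11a2 (12.3) to Ireb2 (6.10). FPKM is per length, so these levels can be set side by side. Slc11a1 and Ncoa4 overlapped across the libraries, as did Aco1 and Slc11a2, whereas Ftl1, Fth1 and Hmox1 were each separated from the next by more than their spread.

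Over the set, 2 of 10 genes were higher and 4 lower than DMSO without overlap in each drug as deposited. Among all tested genes 5.94% were higher and 50.4% lower without overlap in Gem, and 8.24% and 53.9% in HU. After scaling 3 were higher and 0 lower in Gem, beside 17.9% and 17.6% of all genes, and 3 higher (Ftl1, Fth1 and Slc40a1) and 1 lower (Ncoa4) in HU, beside 20.6% and 21.1%. The whole-table limma fit called Tfrc, Slc11a1 and Ncoa4 lower in each drug and no member higher, beside 23.2% of all tested genes called lower and 1.5% higher in Gem, and 35.5% and 4.46% in HU (Benjamini-Hochberg adjusted p below 0.05). These counts repeat the contrasts that were known when the genes were chosen, and nothing is read from them. The median over the 10 genes was -0.12 in Gem and -0.18 in HU, against -0.25 and -0.30 over all tested genes. After scaling 0 of the 10 were called in Gem, beside 0.483% of all genes higher and 0.476% lower, and in HU Ftl1 and Slc40a1 were called higher, beside 4.62% of all genes, and 0 lower, beside 5.78%.

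**Figure D3:**
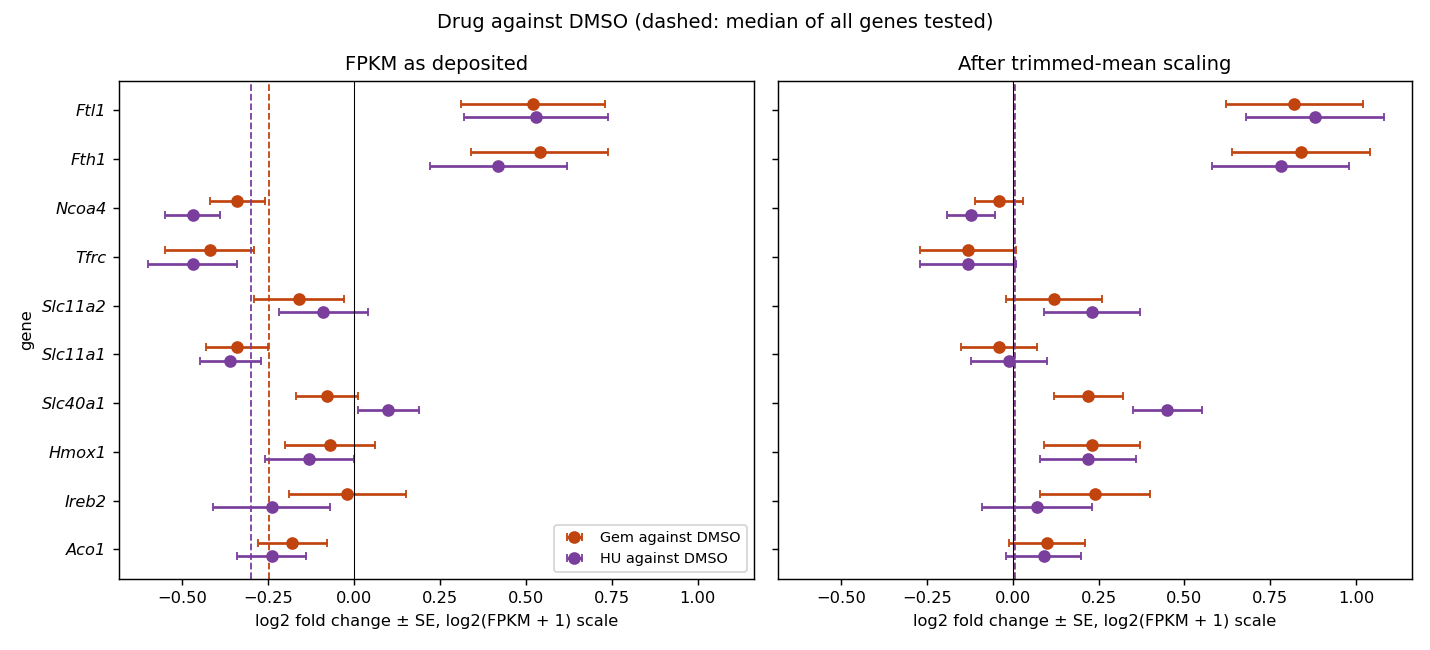
Log2 fold change of each iron gene in Gem and in HU against DMSO with its SE, as deposited (left) and after trimmed-mean scaling (right); dashed lines mark the median of all genes tested. The ferritin chains lie to the right of 0 on both sides, at 0.42 to 0.54 and at 0.78 to 0.88, while Slc11a2, Hmox1, Ireb2 and Aco1 pass from below 0 to above it in both drugs.

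Leaving out single libraries changed which of the 10 the whole-table fit called. In Gem none of the 10 was called without DMSO 1, without Gem 1 or without Gem 2, only Ncoa4 without HU 1 or without HU 2, and Tfrc and Ncoa4 without DMSO 2. In HU only Ncoa4 was called without HU 1 or without HU 2. Without DMSO 3 both ferritin chains were called higher in both drugs, with Tfrc and Ncoa4 lower in both and Slc11a1 lower in HU. These calls too use the values that chose the genes, and only their dependence on single libraries is described.

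DMSO 3 had the highest value of the DMSO libraries for 10 of the 10 genes, both as deposited and after scaling. Over all tested genes it was highest for 29.3% as deposited and 35.8% after scaling. For the ferritins this placed DMSO 3 nearest to the drug libraries, and for Tfrc, Slc11a1 and Aco1 farthest from them.

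Gem and HU were compared directly for the 10 genes. The ferritin chains were chosen on their values against DMSO, and whether this contrast bore on the choice of the other 8 is not recorded. In limma 0 of 10 were called, and 0 reached an unadjusted p under 0.05, beside 0.101% of all tested genes called. Ftl1 averaged 53440 ± 2470 FPKM in Gem and 53648 ± 4930 in HU (SD, n = 2 each), a ratio of 0.998. Its interval reached from 0.692-fold to 1.44-fold (95%, from limma's SE with 7.43 degrees of freedom). Fth1 averaged 24668 ± 2369 FPKM in Gem and 22793 ± 1555 in HU, a log2 difference of 0.11 with an interval from -0.40 to 0.62 (limma adjusted p = 0.896). Slc40a1 had the smallest p of the set, with both Gem libraries below both HU libraries and a log2 difference of -0.18 (interval -0.40 to 0.04, limma adjusted p = 0.528). Ncoa4 was higher in both Gem libraries than in both HU libraries, by 0.13 (interval -0.06 to 0.33, limma adjusted p = 0.614). Over all 10 genes 3 were higher in Gem (Ncoa4, Tfrc and Aco1) and 1 lower (Slc40a1) without overlap, beside 27.7% and 13.8% of all tested genes. For the other 6 genes the log2 differences ran from -0.06 for Slc11a2 to 0.21 for Ireb2, whose interval reached from -0.21 to 0.64. Differences of this size between the drugs were not detectable with 2 libraries each, and the intervals do not show that the drugs act alike.

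The genes whose pattern over the 7 libraries was most like a ferritin chain were sought among 7854 genes with a mean of at least 5 FPKM. For Ftl1 these were Lyz2, Oaz1, Lipa, Fth1 and Alg2, with Pearson r of 0.988, 0.982, 0.976, 0.972 and 0.959 on log2(FPKM + 1). For Fth1 they were Lyz2, Ftl1, Lipa, Ip6k1 and Tacc1, at 0.981, 0.972, 0.970, 0.939 and 0.934. Lipa, the lysosomal acid lipase, averaged 798 FPKM in Gem, 840 in HU and 547 in DMSO. For Tfrc the nearest were Pold3, Mcm2, Pir, Hcls1 and Tmem68, at 0.999, 0.996, 0.992, 0.991 and 0.990; Pold3 is a subunit of DNA polymerase delta and Mcm2 of the replicative helicase. Mcm2 averaged 54.5 FPKM in Gem, 52.4 in HU and 70.3 in DMSO. These correlations are over 7 points that share their library scale, and 3 of the 5 named for Tfrc (Hcls1, Tmem68 and Mcm2) were also among its 5 nearest after scaling. Pold3 was not. High values were common as deposited: Ncoa4 ranked only 368 for Tfrc at an r of 0.922.

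The wider iron pathway was read from 86 other genes in 8 lists, of which 74 were tested. In Gem 33 of 74 fell and 0 rose (limma adjusted p below 0.05), beside 23.2% of all genes lower, and in HU 41 of 74 fell and 0 rose, beside 35.5%. These shares include many genes of low level. With a floor of 5 on the mean FPKM, 39 of 64 iron genes were called in Gem, 38 of them lower, beside 45.2% of all genes. In HU 44 of 64 were called, 43 of them lower, beside 59.6%. After scaling 1 of the 74 fell and 0 rose in Gem, and 9 fell and 2 rose in HU. Beside these, 0.476% of all genes were lower in Gem, and 5.78% lower and 4.62% higher in HU. The lists' median log2 fold change was -0.30 in Gem and -0.40 in HU, and -0.01 and -0.07 after scaling. The Gem count was 0 without Gem 2 and 19 without Gem 1 or without DMSO 1.

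Mitochondrial iron import and iron-sulfur cluster assembly, which builds the cofactor that also sits in cytosolic aconitase, had 9 of 19 genes lower in Gem and 11 of 19 in HU. After scaling 1 was lower in Gem and 5 in HU. Of all tested genes, 23.2% were lower in Gem and 35.5% in HU as deposited, and 0.476% and 5.78% after scaling. Fdx2, the ferredoxin that feeds electrons to assembly, averaged 26.4 ± 0.580 FPKM in Gem, 26.6 ± 1.39 in HU and 50.2 ± 2.63 in DMSO (SD, n = 2, 2 and 3). It fell in both drugs on either scale, with log2 fold changes of -0.90 ± 0.08 in Gem and -0.89 ± 0.08 in HU as deposited (SE, limma adjusted p = 0.00545 and 0.00102) and of -0.61 and -0.55 after scaling (0.0202 and 0.00928). Lyrm4, a partner of the cysteine desulfurase, averaged 15.1 ± 0.255 FPKM in Gem, 12.2 ± 0.693 in HU and 31.0 ± 4.67 in DMSO. Its log2 fold changes were -0.98 and -1.27 as deposited (limma adjusted p = 0.00687 and 0.00112) and -0.70 and -0.93 after scaling (0.0578 and 0.0096). Iscu, the assembly scaffold, changed by -0.38 in Gem and -0.60 in HU, and Bola3 by -0.59 and -0.53 (limma adjusted p from 0.00105 to 0.00877), while after scaling Iscu in HU alone passed (-0.25, 0.0397).

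Cytosolic iron-sulfur assembly had 7 of 12 genes lower in Gem and 9 of 12 in HU, and 0 (4 at an unadjusted p under 0.05) and 1 after scaling. The shares of all tested genes lower were 23.2% and 35.5% as deposited, and 0.476% and 5.78% after scaling. Nubp2, a scaffold of that machinery, was at 74.4 ± 6.06 FPKM in Gem, 75.9 ± 8.61 in HU and 116 ± 0.926 in DMSO, with limma adjusted p = 0.00699 in Gem and 0.00268 in HU, but 0.102 and 0.0858 after scaling. Cisd1, an iron-sulfur protein of the outer mitochondrial membrane, fell in both drugs (-0.55 and -0.70), and after scaling it passed in HU alone (-0.36, limma adjusted p = 0.0243). Ciao2a, which serves the maturation of IRP1, was at 114 FPKM in Gem, 106 in HU and 172 in DMSO (limma adjusted p = 0.00906 and 0.00219, and 0.176 and 0.0544 after scaling).

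**Figure D4:**
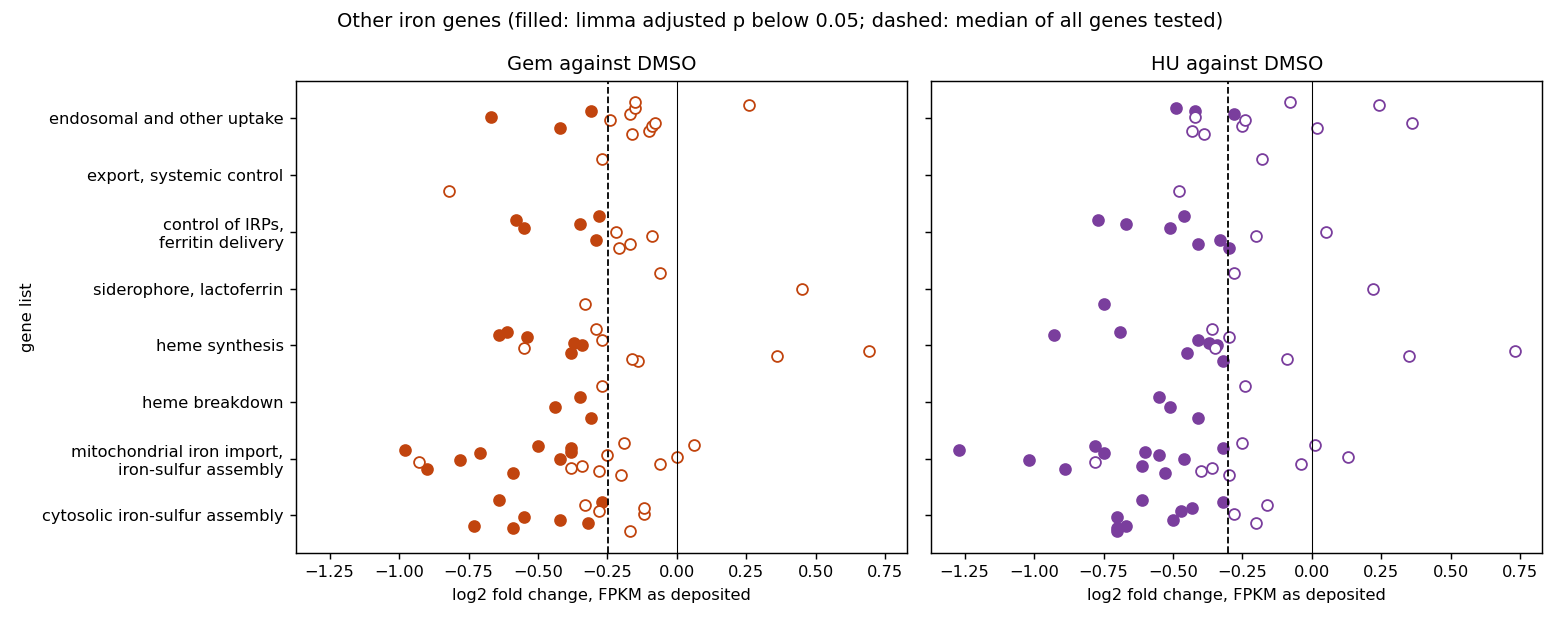
Log2 fold change of the 74 other iron genes tested, by list, in Gem (left) and in HU (right) against DMSO as deposited; filled points passed limma's threshold and the dashed line is the median of all genes tested. All filled points lie below 0, 33 in Gem and 41 in HU, around or below the dashed line at -0.25 and -0.30.

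Heme synthesis had 6 of 13 genes lower in Gem and 7 in HU, and after scaling 0 in Gem (3 at an unadjusted p under 0.05), and 1 lower and 1 higher in HU. Of all tested genes, 23.2% were lower in Gem and 35.5% in HU as deposited. After scaling 0.476% were lower in Gem, and 5.78% lower and 4.62% higher in HU. Tmem14c, a porphyrin carrier of the inner mitochondrial membrane, averaged 170 ± 2.01 FPKM in Gem, 139 ± 7.42 in HU and 266 ± 5.53 in DMSO. Its log2 fold changes were -0.64 in Gem and -0.93 in HU (limma adjusted p = 0.00557 and 0.00102), and after scaling -0.34 (0.0687, not passed) and -0.58 (0.00718). Alas1, the first enzyme of the pathway, was at 437 FPKM in Gem, 418 in HU and 571 in DMSO, with log2 fold changes of -0.38 and -0.45 that came to -0.08 and -0.10 after scaling. Slc25a38, a mitochondrial glycine carrier, passed in Gem (-0.54, limma adjusted p = 0.013) and Urod in both drugs (-0.61 and -0.69), neither after scaling. Heme breakdown beyond Hmox1 had 3 of 4 genes lower in each drug, namely Hmox2 and the biliverdin reductases Blvra and Blvrb, with log2 fold changes of -0.31 to -0.55 (limma adjusted p from 0.00339 to 0.0346). After scaling 0 of the 4 were called in either drug, 0 at an unadjusted p under 0.05.

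Among genes that act on the iron regulatory proteins or on ferritin, 5 of 9 were lower in Gem and 7 of 9 in HU, and 0 (1 at an unadjusted p under 0.05) and 2 after scaling. The shares of all tested genes lower were 23.2% and 35.5% as deposited, and 0.476% and 5.78% after scaling. Pcbp1 and Pcbp2, chaperones that deliver iron to ferritin, averaged 102 ± 0.269 and 59.8 ± 1.39 FPKM in Gem, 105 ± 14.3 and 47.5 ± 0.686 in HU, and 149.9 ± 15.99 and 76.3 ± 2.72 in DMSO. Pcbp2 in HU passed on either scale (-0.67 and -0.33, limma adjusted p = 0.00105 and 0.0291). So did Skp1 in HU, a subunit of the ubiquitin ligase that degrades IRP2 (-0.77 and -0.42, limma adjusted p = 0.00161 and 0.028). Tax1bp1, an autophagy receptor that works with NCOA4, passed as deposited only (-0.28 in Gem and -0.46 in HU, against 0.02 and -0.11 after scaling).

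Endosomal and other uptake genes had 3 of 12 lower in each drug, beside 23.2% of all tested genes lower in Gem and 35.5% in HU. After scaling 0 of the 12 were called in Gem, 1 at an unadjusted p under 0.05 in limma. In HU 1 was then higher and 0 lower, beside 4.62% and 5.78% of all genes. Snx3, which recycles the transferrin receptor, fell as deposited (-0.31 in Gem and -0.42 in HU), and its values after scaling were -0.01 and -0.07, where neither passed. Steap3, the endosomal ferrireductase, was at 5.25 FPKM in Gem, 3.94 in HU and 5.93 in DMSO and passed in HU (-0.49, limma adjusted p = 0.0227, against -0.20 with an adjusted p of 0.39 after scaling). Lrp1, a receptor for hemopexin-bound heme, passed as lower in Gem (-0.42, limma adjusted p = 0.0146) and, after scaling, as higher in HU (0.35, 0.0312); its difference between Gem and HU did not pass (limma adjusted p = 0.256). Slc46a1, a folate and heme carrier, passed in Gem as deposited (-0.67, limma adjusted p = 0.0402), and the lysosomal heme carrier Slc48a1 in HU (-0.28, 0.0125), where scaling turned the sign to 0.07. Export and systemic control had 2 of 8 genes tested and 0 called in either drug, with 1 at an unadjusted p under 0.05 in Gem and 0 in HU; the heme exporter Flvcr1 was at 7.98 FPKM in Gem, 8.64 in HU and 10.1 in DMSO. Of 3 siderophore and lactoferrin genes, 0 were called in Gem, 1 at an unadjusted p under 0.05, and 1 in HU: Lcn2, which binds bacterial siderophores, at 162 ± 15.1 FPKM in Gem, 122 ± 20.2 in HU and 204 ± 4.23 in DMSO (-0.75 in HU, limma adjusted p = 0.00264, and -0.40 with 0.0653 after scaling). Between Gem and HU 0 of the 74 genes were called in limma, 8 at an unadjusted p under 0.05.

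In the annotation of GRCm38, the assembly of mm10, Ftl1 lies on chromosome 7 (45457944 to 45459884, minus strand) and Fth1 on chromosome 19 (9980598 to 9985098, plus strand). Tfrc lies on chromosome 16 (32608920 to 32632794, plus strand), Ncoa4 on chromosome 14 (32159865 to 32179855, plus strand) and Slc40a1 on chromosome 1 (45908068 to 45926523, minus strand). FPKM covers whole genes, so exons and untranslated regions are not told apart. Ftl1 overlaps the antisense gene Gm10252, and both ferritins have processed copies elsewhere in the genome with which they can share reads.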

How the data were processed

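The authors deposited 1 table of FPKM for 52224 genes and 7 libraries, and 0 columns were left unused. Per the submitters' processing notes, Bowtie 0.12.9, Cufflinks 2.1.1, HTSeq, DESeq2 and build mm10 were named without roles. Which tool and annotation made the values is not given in the sources used here. Per the labels' protocols, RNA came from a miRNeasy kit, was amplified by the Geo-seq method and made into libraries with a TruePrep kit. FPKM holds no read counts, so depth is unknown and no intervals that need it are given.

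Values were tested as log2(FPKM + 1) with limma 3.58.1 (R 4.3.3), 1 model of 3 groups with a mean-variance trend and no block, two-sided, with Benjamini-Hochberg adjustment over 13865 genes with at least 1 FPKM in at least 2 libraries and calls below 0.05. The log scale understates changes of low genes. On simulated data for 13865 genes, 200 were changed, and 69% of changes of log2 size 1 in Gem against DMSO were recovered. The changed genes were drawn from those of higher level in DMSO, so this rate does not cover low genes. The simulated libraries had independent noise and no shift of the whole table. Trimmed-mean scaling left out the outer 30% of ratios and 5% of levels on both sides.

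The 10 members and the lists were chosen with earlier results of these data known. Named were, besides the members, up to 3 called genes with the smallest p per list and contrast, or the gene with the highest mean where none was called; the 5 genes nearest to Ftl1, Fth1 and Tfrc, predicted and clone names left out; and rows whose symbol starts with Ftl or Fth. C1qb, Ly6c2 and the genes named for stem loops were chosen after their values were seen. Stem loops were searched in GENCODE M21. The main model did not pair libraries by replicate number. Figures were drawn with matplotlib 3.10.9 in Python 3.11.15.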

Additional observations from a re-analysis of the deposited data

How the results depend on the processing

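The settings tried were no filter, a pseudocount of 0.1, a floor of 5 on the mean FPKM, trimmed-mean scaling, equal sums, quantile normalization, no trend, a replicate block, the compared groups alone, and each library left out. The number of genes called in Gem against DMSO, 3421, became 1509 with no filter, 133 with trimmed-mean scaling, 440 with equal sums, 67 with quantile normalization and 2132 with no trend, and 13 to 3381 with a library left out (13 without Gem 2, 1525 without DMSO 1, 1555 without Gem 1 and 2167 without DMSO 2). For HU against DMSO 5541 became 1442, 1478 and 560 under these scalings in the same order, and 3095 to 5204 with a library left out (3095 without HU 1 and 3677 without HU 2). For Gem against HU 14 became 1 at a pseudocount of 0.1, 2 with no filter, 2 with the floor on the mean FPKM, 64 with no trend and 2 with the replicate block, and 1 to 11 with a library left out. Other iron genes called in Gem, 33, became 18 with no filter, 1, 5 and 1 under the 3 scalings and 20 with no trend, and 0 to 30 with a library left out; the 41 in HU became 11, 12 and 7 under the scalings, and 30 to 41 with a library left out. The 0 calls among members and other iron genes in Gem against HU stayed 0 in all 16 alternatives, with 0 or 1 members and 5 to 13 other iron genes at an unadjusted p under 0.05 in limma.

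Quantile normalization set Ftl1 and Fth1 to almost the same value in every library by its construction, since they ranked 1 and 3 in each. Under it Ncoa4 turned to 0.13 in Gem and 0.13 in HU and Slc11a1 to 0.12 and 0.23. It also turned Snx3 (0.14 and 0.17), Tax1bp1 (0.12 and 0.06), Alas1 (0.04 and 0.18) and Blvra (0.10 and 0.11) in both drugs, Pcbp2 (0.03), Hmox2 (0.03) and Iscu (0.05) in Gem, and Pcbp1 (0.06), Blvrb (0.11) and Slc48a1 (0.34) in HU. Slc48a1 in HU was at 0.07 with trimmed-mean scaling and 0.06 with equal sums, and Tax1bp1 in Gem at 0.02 with trimmed-mean scaling. The cause of these turns was not tested.

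The replicate numbers shared by the groups showed no clear pairing of the libraries. Deviations from the group means correlated at -0.074 between Gem and HU libraries of the same number, and at 0.013 to 0.055 between DMSO and drug libraries. With 2 libraries in each drug the deviations mirror each other by construction, so these values cannot exclude a shared origin. With the replicate block 2877 genes were called in Gem and 4835 in HU, with 26 and 40 of the other iron genes. Of the members, Ftl1 and Fth1 were called higher in both drugs, with Tfrc, Slc11a1 and Ncoa4 lower in HU. Replicate number 3 exists only in DMSO, so the block takes DMSO 3 out of each drug's contrast with DMSO. The log2 fold change of Ftl1 was 0.64 in each drug with the block, as it was without DMSO 3. These member calls too use the values that chose the genes. Unknown depth leaves the precision of low genes such as Ireb2 open to the spread between libraries alone.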

Other observations

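Copies of the ferritin genes were read alongside the parents. The table held 15 rows whose symbol starts with Ftl or Fth beside Ftl1 and Fth1; 6 were listed at 0 in all 7 libraries and 5 were tested. Ftl1-ps1, a retrogene of the light chain, was at 740 and 772 FPKM in Gem, 746 and 831 in HU, and 398, 330 and 548 in DMSO. It rose in Gem and HU by 0.86 ± 0.19 and 0.92 ± 0.19 (SE, limma adjusted p = 0.019 and 0.00871), and by 1.16 and 1.27 after scaling (0.054, not passed, and 0.0134). Its level was 1.43% and 1.40% of that of Ftl1 in Gem, 1.49% and 1.45% in HU, and 1.10%, 1.01% and 1.26% in DMSO. Fth1-ps was at 5.40 and 6.32 FPKM in Gem, 9.57 and 6.56 in HU, and 2.51, 2.42 and 1.70 in DMSO, a rise of 1.10 ± 0.20 and 1.49 ± 0.20 (limma adjusted p = 0.0112 and 0.00201, and 0.0397 and 0.00708 after scaling). These copies share reads with their parents and are uncertain. Their parents were chosen for higher values in the drugs, so the p-values of the copies may carry that choice. They are not separate evidence of a ferritin rise.

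Beyond the members, 12 tested genes held the stem loop in a 5′ untranslated region. In limma 5 were lower and 1 higher in Gem, and 7 lower and 1 higher in HU. Of all tested genes, 23.2% were lower and 1.5% higher in Gem, and 35.5% and 4.46% in HU. The 1 higher was Ftl1-ps1 in each. It shares reads with Ftl1, which was chosen for its higher values, so nothing is read from its call. After scaling 0 were called in Gem, 2 at an unadjusted p under 0.05, beside 0.483% of all genes higher and 0.476% lower. In HU 1 was then higher, again Ftl1-ps1, and 1 lower, beside 4.62% and 5.78%. Alas2, the erythroid first enzyme of heme synthesis, averaged 1.83 FPKM in Gem, 1.91 in HU and 0.683 in DMSO and passed in neither drug (limma adjusted p = 0.182 and 0.132).

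Erythroid markers, whose cells take up iron for haemoglobin, summed to 49.6 to 50.1 FPKM in Gem, 56.8 to 58.6 in HU and 74.7 to 113 in DMSO over 11 genes, all of which were in the table, with Slc4a1 listed at 0 in DMSO. Their part in the values of Tfrc was not tested. Mast cell and basophil markers summed to 238 to 419 FPKM in Gem, 209.7 to 215 in HU and 296 to 1386 in DMSO.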
